A study of Saccharomyces cerevisiae BY4741 with 4 samples.

Results

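The 57 genes described here encode the enzymes that attach ubiquitin or the related protein SUMO to other proteins and those that take them off again. They were chosen by systematic name, as ubiquitin activating and conjugating enzymes, ligases, subunits of the SCF and anaphase-promoting complexes, ubiquitin proteases and genes of the SUMO pathway. Of the 57, 54 had a level of histone H3 trimethylated on lysine 4 (H3K4me3) in both strains of the study, out of 5038 such genes in the table. The levels of UBR2, APC1 and CDC16 were not analysed here.

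The tested strain was BY4741-spp1Δ, a Saccharomyces cerevisiae strain in which the KanMX6 drug resistance cassette replaces SPP1. It was set against its parent BY4741 (MATa, his3Δ1, leu2Δ0, ura3Δ0), called wild type here, and both cultures were in log phase in rich glucose medium, at an optical density of 0.6. Chromatin was cut with micrococcal nuclease, precipitated with an antibody against H3K4me3 and sequenced, with fission yeast cells added at 25% as a spike-in. The series holds 4 libraries, of which the H3K4me3 library of each strain was used, and how many clones stand behind each strain is not given. With 1 library per strain, no difference below has a replicate check, a test or a p-value. Read depth is unknown, and levels are in the authors' normalised units.

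Ubiquitin is passed from an activating enzyme (E1) to a conjugating enzyme (E2) and, with the help of a ligase (E3) that picks the substrate, to the target protein. Chains of ubiquitin send many targets to the proteasome, and ubiquitin proteases cut the ubiquitin off for reuse. SUMO has its own small set of E1, E2, ligases and proteases. H3K4me3 marks the 5′ part of transcribed genes, and Spp1, which has a PHD finger, belongs to COMPASS, the only methyltransferase complex for this residue in budding yeast.

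SPP1 itself had an H3K4me3 level of 0.0982 in the spp1 library and 1.89 in the wild-type library. Over all 5038 genes the median level was 0.494 in the spp1 strain and 2.01 in wild type, and the median log2 ratio was -1.93. The left arm of chromosome IV stood apart, with a standard deviation of log2 ratios of 1.06 over its 212 genes, against 0.52 over the 4826 genes elsewhere. Results that rest on genes of this arm are given with and without them below.

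Every one of the 54 genes had a lower level in the spp1 strain than in wild type, with the levels as deposited. This was not particular to them, as all 4826 genes off chromosome IV left were lower too, with a highest share of 91.7%. Their levels ran between 0.187 and 1.45 in the spp1 strain, with a median of 0.5002, and between 0.551 and 3.14 in wild type, with a median of 2.01. The highest spp1 level was that of APC11, on chromosome IV left, and lay above the wild-type levels of 7 of the 54. Off that arm the highest spp1 level was 0.878, above the wild-type levels of 2 genes, UBP11 and UBC11, so the ranges overlapped with or without the arm. The median share of the wild-type level was 24.7%, a log2 ratio of -2.02. The difference from the median of all genes was -0.094, and the standard deviation of log2 ratios was 0.51 among the 54 genes and 0.55 among all genes. Below 25% of wild type lay 28 of the 54 genes, or 51.9%, beside 44.6% of all genes. Below 50% of wild type lay 53 of the 54, beside 93.8% of all genes. Above the all-gene median ratio lay 24 of the 54, beside 50% of all genes by definition. The count below 25% was 4 of 54 with a pseudocount of 0.201 added to both levels, where all genes came to 8.30%.

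The ubiquitin supply rests in part on UBI4, the polyubiquitin gene used under stress, which had a level of 0.251 in the spp1 strain and 1.21 in wild type, or 20.7% of wild type. DOA1, whose product is needed to keep up the pool of free ubiquitin, had levels of 0.641 in the spp1 strain and 2.06 in wild type, or 31.1%. The other ubiquitin genes encode a ubiquitin fused to a ribosomal protein and are not among the 57. RPS31 had levels of 1.27 in the spp1 strain and 2.18 in wild type (58.1%). RPL40B had levels of 1.52 in the spp1 strain and 2.51 in wild type (60.5%). UBI4 was lower than these 2 fusion genes in both libraries. They are named because their shares were seen to be at or above 50%, so the smaller share of UBI4 follows from that choice.

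The 12 genes of the ubiquitin E1 and E2 enzymes, counted together with the E2 of the ubiquitin-like protein Rub1, had a median of 26.0% of wild type. Of these 12, 6 lay below 25%, or 50%, beside 44.6% of all genes. UBA1, the sole E1 for ubiquitin, had levels of 0.798 in the spp1 strain and 2.37 in wild type, or 33.7%. The highest share was that of UBC7, an E2 of protein degradation at the endoplasmic reticulum, with 0.784 in the spp1 strain and 2.18 in wild type (36.0%). UBC6, which acts in the same process, had 0.543 in the spp1 strain and 2.32 in wild type (23.4%). UBC7 thus had the lower level in wild type (percentile 68.2, against 82.3 for UBC6) and the higher level in the spp1 strain.

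The lowest share of the E2 genes was that of UBC12 (YLR306W, chromosome XII, 744151 to 744851), the E2 for Rub1. It had a level of 0.223 in the spp1 strain and 1.95 in wild type, or 11.5%, which placed it at percentile 0.427 of all log2 ratios. Its wild-type level was near the middle of the table, at percentile 43.0. UBC8, an E2 for a gluconeogenic enzyme, followed with 0.242 in the spp1 strain and 1.38 in wild type (17.6%). CDC34, the E2 of SCF, lay at 28.8% (0.629 in spp1, 2.18 in wild type). UBC1 lay at 21.6%, with 0.514 in the spp1 strain and the highest wild-type level of these enzymes, 2.38. UBC11 had the lowest levels, 0.204 in the spp1 strain and 0.612 in wild type (33.3%).

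UBC4 and UBC5, duplicate genes for E2 enzymes that act on short-lived and abnormal proteins, carried different amounts of the mark. UBC4 had 0.605 in the spp1 strain and 1.78 in wild type (34.0%). UBC5 had 0.309 in the spp1 strain and 1.08 in wild type (28.7%). The level of UBC4 was 1.96 times that of UBC5 in the spp1 strain and 1.65 times in wild type. UBC13 and MMS2, whose products form 1 conjugating enzyme of DNA damage tolerance, lay at 20.9% (0.319 in spp1, 1.52 in wild type) and 23.5% (0.453 in spp1, 1.93 in wild type).

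Of the single-protein ligases, 8 of 9 genes were measured, with a median of 27.0%. Of the 8, 3 lay below 25%, or 37.5%, beside 44.6% of all genes. RSP5, the essential ligase of membrane protein sorting, had levels of 0.799 in the spp1 strain and 2.37 in wild type (33.7%). TOM1, a large HECT ligase, had the highest share, 38.7%, with 0.808 in the spp1 strain and 2.09 in wild type. UBR1, the ligase that reads the N-terminal residue of its substrates, lay at 25.2% (0.487 in spp1, 1.93 in wild type). UFD4 and UFD2 act in turn on ubiquitin fusion substrates. UFD4 lay at 22.4% (0.357 in spp1, 1.59 in wild type), and UFD2, on chromosome IV left, at 33.6% (0.795 in spp1, 2.36 in wild type). SAN1, a ligase for misfolded nuclear proteins, lay at 18.9%, with 0.376 in the spp1 strain and 1.99 in wild type.

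The related HECT ligase genes HUL4 and HUL5 stood far apart. HUL4 (YJR036C, chromosome X, 500713 to 503391) had 0.187 in the spp1 strain, the lowest of all 54 genes, and 1.27 in wild type, or 14.7%. HUL5, which extends chains at the proteasome, had 0.612 in the spp1 strain and 2.13 in wild type, or 28.8%. The median of the ligases lay 0.035 above that of all genes on the log2 scale, but 0.054 below it (difference -0.054) without chromosome IV left, so no direction is given for this group.

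SCF is a cullin-based ligase built on the cullin Cdc53 and the RING protein Hrt1, with exchangeable F-box proteins that bind substrates. CDC53, on chromosome IV left, had 0.268 in the spp1 strain and 2.09 in wild type, or 12.8%. HRT1 had 0.609 in the spp1 strain and 1.90 in wild type (32.0%). The F-box gene GRR1, which acts on G1 cyclins and in glucose signalling, had 0.732 in the spp1 strain and 2.31 in wild type (31.7%). CDC4, the F-box gene for the inhibitor Sic1, had 0.423 in the spp1 strain and 1.79 in wild type (23.6%). The scaffold gene thus lay far below its partners in the spp1 library alone, on an arm where ratios scattered widely. With the 3 SCF genes of other arms the median was 31.7%, and with all 4 it was 27.3%. CDC53 and UBC12, a cullin gene and the gene of the enzyme that modifies the cullin with Rub1, were both among the 5 lowest ratios of the 54. Without chromosome IV left only UBC12 remains of this pair, and a link between their ratios was not tested.

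The anaphase-promoting complex is the cell cycle ligase that destroys securin and mitotic cyclins, and 9 of its 11 listed genes were measured. Their median was 23.2% of wild type, and 7 of the 9 lay below 25%, beside 44.6% of all genes. The group's median log2 ratio lay 0.18 below that of all genes (difference -0.18), and it was below it under all 7 alternative settings tried, by between 0.15 and 0.32 (differences -0.15 to -0.32). The -0.32 came with the floor at the median wild-type level, which left only 3 of the 9 genes (APC2, APC5 and APC9). Of these settings, division of each library by its sum cannot change the difference, and counting identical levels once left it at -0.18. Whether this group of 9 differs from other genes was not tested.

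Of the catalytic core of that complex, the cullin-like subunit gene APC2 lay at 23.2%, with 0.519 in the spp1 strain and 2.24 in wild type. APC11 (YDL008W, chromosome IV, 433497 to 433994), the RING subunit gene, had 1.45 in the spp1 strain and 1.86 in wild type, or 78.1%. It was the highest share of all 54 genes, at percentile 99.3 of the table, and the only one at or above 50%, where 6.17% of all genes lay. APC11 is on the left arm of chromosome IV, where 23.6% of genes lay at or above 50%. Off that arm none of the remaining 49 genes reached 50%, beside 5.41% of all genes there. All 49 thus lay below 50%, beside 94.6%, and 26 of them below 25%, beside 44.9%.

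The other subunit genes of the complex lay close together. The scaffold gene APC4 lay at 21.0% (0.414 in spp1, 1.97 in wild type) and APC5 at 18.6% (0.395 in spp1, 2.12 in wild type). Of the genes for subunits with tetratricopeptide repeats, CDC27 lay at 21.8% (0.411 in spp1, 1.88 in wild type) and CDC23 at 30.9% (0.608 in spp1, 1.97 in wild type). DOC1, which helps substrates bind, lay at 20.2% (0.383 in spp1, 1.90 in wild type). APC9 lay at 23.4% (0.535 in spp1, 2.28 in wild type), and the small subunit gene CDC26 at 24.2% (0.358 in spp1, 1.48 in wild type). Without APC11 the standard deviation of log2 ratios in the complex was 0.22, against 0.41 among all 49 genes off chromosome IV left, and with APC11 it was 0.63.

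**Figure D1:**
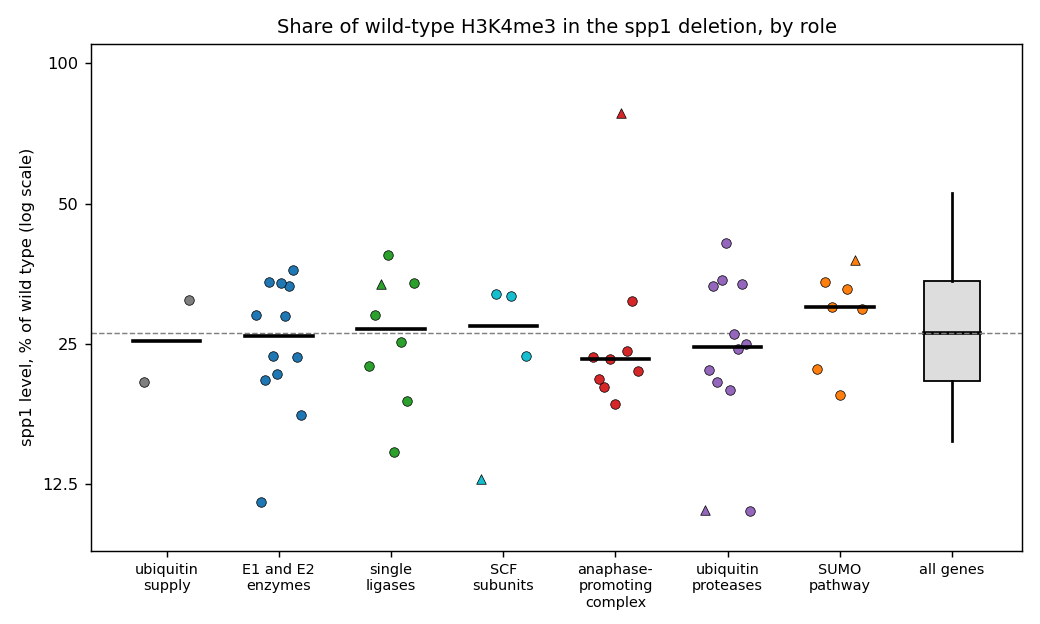
H3K4me3 level in the spp1 deletion as a percentage of wild type (log axis), 1 point per gene, by role; black bars are group medians, triangles are genes on chromosome IV left, and the box for all 5038 genes spans the middle 50% with whiskers over the middle 90%. The medians run between 23.2% for the anaphase-promoting complex and 30.0% for the SUMO pathway, around the all-gene median of 26.3% (dashed).

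The 12 ubiquitin protease genes spanned the widest range of wild-type levels of the role groups, between 0.551 and 3.14. Their median was 24.7% of wild type, with 7 of 12 below 25%, or 58.3%, beside 44.6% of all genes. Off chromosome IV left, where UBP1 lies, it was 6 of 11, beside 44.9%. UBP13 (YBL067C, chromosome II, 93639 to 95882) had 0.767 in the spp1 strain and 3.14 in wild type, or 24.4%, and its wild-type level was the highest of the table. UBP6, which sits on the proteasome, had 0.625 in the spp1 strain and 2.51 in wild type (24.9%). UBP2, which opposes Rsp5, had 0.814 in the spp1 strain and 2.44 in wild type (33.4%). The gene with the highest wild-type level was therefore not the one with the highest spp1 level.

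UBP14, which takes apart free ubiquitin chains, had the highest share of the group, 41.2%, with 0.878 in the spp1 strain and 2.13 in wild type. UBP3, whose product works with Bre5, lay at 33.6% (0.670 in spp1, 1.99 in wild type). DOA4, which recovers ubiquitin from proteins bound for the vacuole, lay at 19.9% (0.393 in spp1, 1.98 in wild type). Its duplicate UBP5 lay at 20.7% (0.347 in spp1, 1.67 in wild type). The shares of these duplicates were close, with a difference of log2 ratios (DOA4 minus UBP5) of -0.060 as deposited and -0.0995 with the pseudocount. With each library's 1st percentile taken off as background it was 0.0028, so neither gene is called the lower in share.

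UBP15 (YMR304W, chromosome XIII, 874987 to 878679) and UBP1 had the lowest shares of the 54 genes. UBP15 had 0.208 in the spp1 strain and 1.90 in wild type, or 11.0%. UBP1, on chromosome IV left, had 0.232 in the spp1 strain and 2.11 in wild type, also 11.0%. Both had wild-type levels well inside the middle of the table, at percentiles 38.3 and 60.9. The lowest 5% of ratios in the table held 5 of the 54 genes (UBP15, UBP1, UBC12, CDC53 and HUL4), of which 3 were off chromosome IV left. The lowest 10% held the same 5 genes and no others of the 54, and the middle 50% held 35. The highest 5% held APC11 alone, as did the highest 10%.

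UBP11, UBP9 and UBC11 had little of the mark in either library. UBP11 had 0.189 in the spp1 strain and 0.551 in wild type (34.2%). UBP9, the duplicate of UBP13, had 0.198 in the spp1 strain and 0.903 in wild type (22.0%). Together with UBC5 these were the 4 members in the lowest 10% of wild-type levels. Over the 504 genes of that lowest 10% the median spp1 level was 0.1997, with a middle 50% between 0.173 and 0.234, so that ratios of such genes set a narrow range of spp1 levels against their wild-type levels. When each library's 1st percentile (0.149 in spp1, 0.362 in wild type) was taken off as background, the log2 ratio of UBP11 was -2.24, against -1.55 as deposited, and that of UBP9 was -3.44, against -2.19. The spp1 levels of UBP15, UBP1, UBC12 and HUL4 also lay within that narrow range, so their ratios moved as well. UBP15 had a log2 ratio of -3.19 as deposited, -2.36 with the pseudocount and -4.69 after background subtraction. UBP1 had -3.18, -2.41 and -4.39 in the same order, UBC12 -3.12, -2.34 and -4.41, and HUL4 -2.77, -1.92 and -4.58. All 4 stayed below the all-gene median under both settings, but their order changed.

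**Figure D2:**
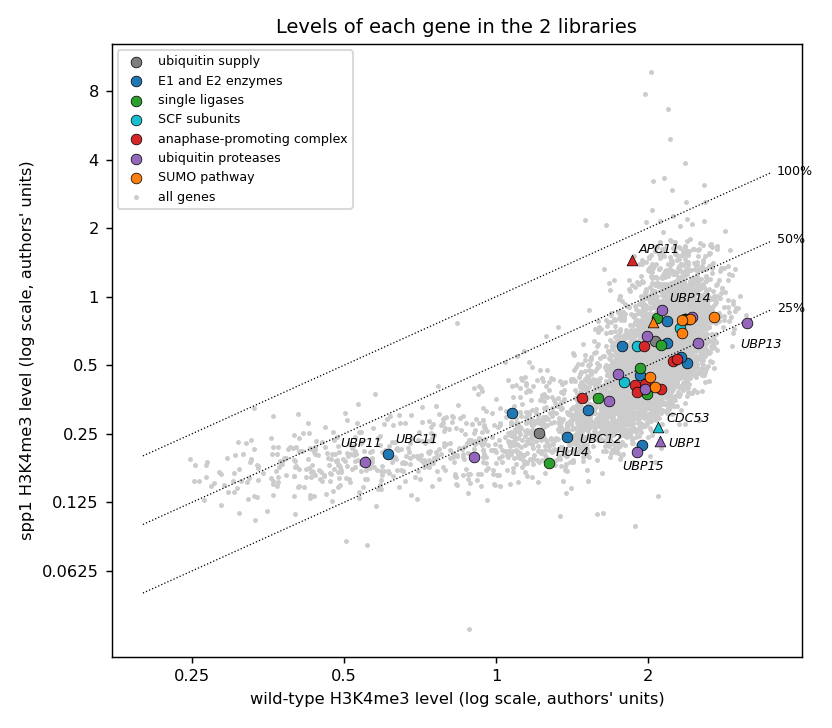
H3K4me3 level in the spp1 deletion (vertical) against wild type (horizontal), both on log axes in the authors' units, for all 5038 genes (grey) and the 54 ubiquitin and SUMO genes (coloured by role, triangles on chromosome IV left); dotted lines mark 100%, 50% and 25% of wild type. UBP15, UBP1, UBC12 and CDC53 lie at the lower edge of the cloud at middling wild-type levels, and APC11 lies in its upper part.

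The 7 SUMO pathway genes had a median share of 30.0%, the highest of the role groups with all genes counted. Off chromosome IV left it was 29.9%, below the 31.7% of the 3 SCF genes there. With the floor at the median wild-type level the ligase and ubiquitin supply groups lay above the SUMO genes, but only DOA1 remained of the supply genes. Of the 7, 2 lay below 25%, or 28.6%, beside 44.6% of all genes. Their median log2 ratio lay 0.19 above that of all genes, and it was above it under each of the 7 alternative settings, by between 0.048 and 0.35. Division of each library by its sum cannot change this difference, and counting identical levels once left it at 0.19. All 7 genes had a wild-type level above the median of the table. With the table cut into 5 classes by wild-type level, the highest class held SMT3, AOS1, UBA2 and NFI1. The median share of all genes in that class was 30.7%. In the middle class, which held UBC9, SIZ1 and ULP1, it was 25.6%. Whether the SUMO genes differ from genes of like wild-type level was not tested. SMT3, which encodes SUMO, had 0.694 in the spp1 strain and 2.34 in wild type (29.7%). The E1 is made of Aos1 and Uba2, whose genes had near-equal levels in the spp1 strain. In wild type they lay at percentiles 89.8 (AOS1) and 98.9 (UBA2) of all genes. AOS1 had 0.796 in the spp1 strain and 2.43 in wild type (32.8%). UBA2 had 0.811 in the spp1 strain and 2.70 in wild type (30.0%). UBC9, the SUMO E2 gene on chromosome IV left, lay at 37.8% (0.772 in spp1, 2.04 in wild type).

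The SUMO ligase genes SIZ1 and NFI1 are a duplicate pair. Their wild-type levels lay at percentiles 55.6 (SIZ1) and 83.5 (NFI1) of all genes, in the middle and the highest class. SIZ1 had 0.401 in the spp1 strain and 2.07 in wild type (19.4%). NFI1 had 0.791 in the spp1 strain and 2.33 in wild type (33.9%). The level of SIZ1 was 0.507 times that of NFI1 in the spp1 strain and 0.886 times in wild type. ULP1, the SUMO protease gene, lay at 22.0% (0.446 in spp1, 2.02 in wild type). Of the 7 genes, SMT3, AOS1, UBA2, UBC9 and NFI1 thus lay above the all-gene median share of 26.3%, and SIZ1 and ULP1 below it.

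In all, 7 of the 8 pairs listed were measured. UBP13 had 3.86 times the level of UBP9 in the spp1 strain and 3.48 times in wild type. UBP12, with 0.457 in the spp1 strain and 1.74 in wild type (26.2%), was set beside UBP11 without a known relation between them, at 2.42 times its level in the spp1 strain and 3.16 times in wild type. The difference of log2 ratios ran between -0.81 (SIZ1 minus NFI1) and 0.24 (UBC4 minus UBC5) as deposited. SIZ1 minus NFI1 was -0.56 with the pseudocount and -1.14 after background subtraction, and UBC4 minus UBC5 was 0.027 and 0.52. The order of the pairs by size changed under both settings. UBP13 minus UBP9 was 0.15 as deposited, -0.32 with the pseudocount and 1.27 after background subtraction, so no order of their losses is given. UBP12 minus UBP11 likewise changed sign, being -0.38 as deposited and 0.079 after background subtraction. So did DOA4 minus UBP5, with -0.060 as deposited and 0.0028 after background subtraction.

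**Figure D3:**
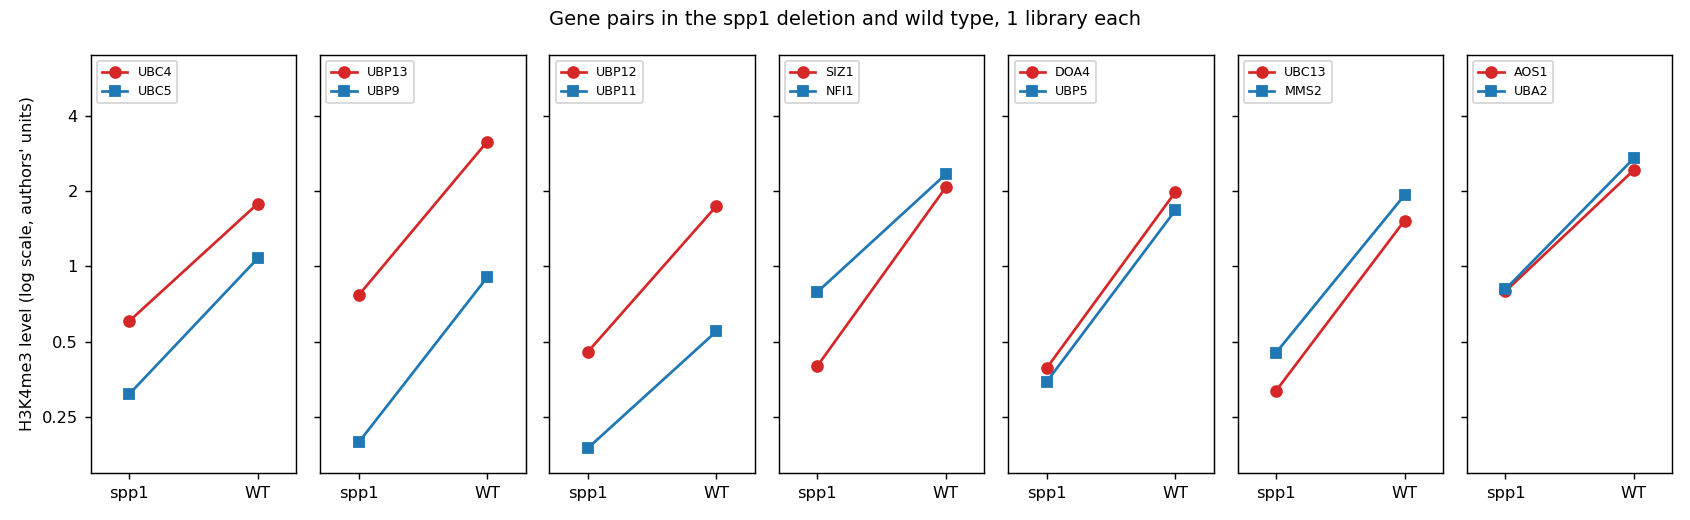
H3K4me3 level (log axis, authors' units) of 7 gene pairs in the spp1 deletion (left of each panel) and wild type (right), 1 library each; lines join the levels of a gene. The lines of SIZ1 and NFI1 spread apart in the spp1 deletion (0.401 and 0.791), and those of DOA4 and UBP5 run nearly parallel.

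The 54 genes lay on 12 chromosomes, with 16 on chromosome IV, of which 5 were on its left arm. None overlapped another annotated protein-coding gene, and none shared both of its levels with another gene. They were long, with a median annotated length of 2103 bases against 1236 for all genes. Whether the authors divided levels by length is not stated, and across genes wild-type level and length had a Spearman correlation of 0.15 over the 54 and 0.12 over all annotated genes of the table. The log2 ratio had a Spearman correlation of -0.071 with length and 0.26 with wild-type level over the 54 genes, which share both libraries. The levels in the 2 libraries had a Spearman correlation of 0.72 over the 54 genes and 0.76 over all genes. Off chromosome IV left these were 0.826 over 49 genes and 0.764 over all genes there, so their order turned round. The log2 ratio of the 49 had a correlation of 0.033 with length and 0.32 with wild-type level. Wild-type level and length had 0.109 over the 49 and 0.121 over all annotated genes there.

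The nearest upstream gene was transcribed away from the member (divergent) for 27 genes and in the same direction (tandem) for the other 27. The divergent ones had a median of 0.605 in the spp1 strain and 1.97 in wild type, and a median share of 28.8%. The tandem ones had 0.446 in the spp1 strain and 2.02 in wild type, and a median share of 23.4%. Over all genes the medians were 26.8% for 2552 divergent and 25.9% for 2383 tandem genes. The gap among the 54 genes was wider than that in the table and was not tested.

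With the whole table cut into 5 classes of like size by wild-type level, the classes held 9, 10, 14, 8 and 13 of the 54 genes from lowest to highest. Their median shares in that order were 22.0%, 23.0%, 22.8%, 26.0% and 31.7%, and those of all genes 24.9%, 22.2%, 25.6%, 28.4% and 30.7%. The members lay below all genes in 3 classes and above them in 2, by at most 0.18 on the log2 scale in size.

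A further 62 genes of ubiquitin and SUMO biology that are not among the 57 were listed, of which 54 were measured. Of the rest, 5 lie on chromosome IX, whose genes have no spp1 level in the table. The 54 had median levels of 0.573 in the spp1 strain and 2.10 in wild type, and a median share of 25.9%. Of these, 25 lay below 25%, beside 44.6% of all genes, and 4 at or above 50%, beside 6.17%. Those 4 were SHP1 (51.6%), a Cdc48 cofactor gene, RPS31, RPL40B and BRE5 (60.6%), and naming them as a set was decided after their values were seen. BRE5 had 1.23 in the spp1 strain and 2.03 in wild type, while UBP3, the protease gene it partners, had a like wild-type level and a spp1 level of 0.670. YUH1, a ubiquitin hydrolase gene that also processes Rub1, was lowest at 13.3% (0.232 in spp1, 1.74 in wild type).

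The proteasome acts after ubiquitin conjugation, and 32 of its 33 listed subunit genes were measured. They had median levels of 1.05 in the spp1 strain and 2.23 in wild type, and a median share of 44.4%. All 32 lay above the all-gene median ratio and none below 25%, beside 44.6% of all genes and 28 of the 54 ubiquitin and SUMO genes. The lowest proteasome gene was PRE3 (30.7%). At or above 50% lay 11 of the 32, beside 6.17% of all genes and 1 of the 54. The difference between these lists was not tested.

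**Figure D4:**
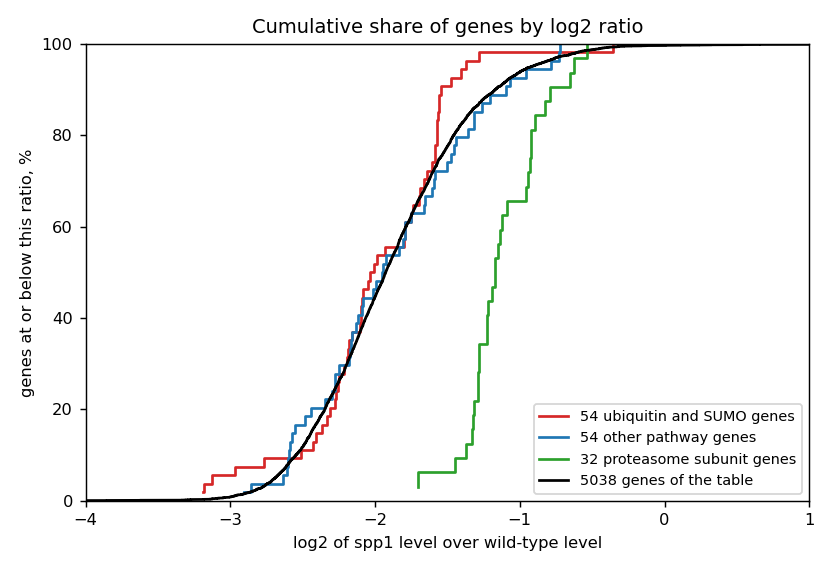
Cumulative share of genes (vertical, %) at or below a given log2 ratio of the spp1 level over the wild-type level (horizontal), for the 54 ubiquitin and SUMO genes, 54 other pathway genes, 32 proteasome subunit genes and all 5038 genes. The curves of both ubiquitin lists run along that of all genes (medians -2.02 and -1.95 against -1.93), and that of the proteasome genes lies to the right (median -1.17).

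The size of every difference between the strains depends on how the authors scaled one library to the other. After division of each library by its sum over genes, the all-gene median log2 ratio was -0.17, and 21 of the 54 genes lay above wild type, beside 38.4% of all genes. Such a factor cancels in differences between genes or groups.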

How the data were processed

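The authors deposited 1 normalised H3K4me3 signal per gene for the wild-type and for the spp1 library, per the file headers. Per the series design text, the fission yeast spike-in makes the strains comparable. Bowtie2, SAMtools and bedtools with the builds sacCer3 and ASM294v2 were used, per the submitters' processing notes, and their versions, the part of a gene averaged, any division by input or length, and read depth are not given in these sources. Of the 5219 gene lines, 5038 had both levels, and 3 further lines had been emptied before this work. Names, coordinates (1-based) and lengths came from RefSeq's R64 annotation, the assembly of sacCer3, with strand read from the systematic name. All members matched by systematic name. Promoter and protein sequences were not used here.

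The log2 ratio of spp1 to wild type was computed in Python 3.11.15 (numpy 2.4.6, pandas 2.3.3, scipy 1.17.1) without pseudocount or floor, and summarised by medians and by counts below 25% and at or above 50% of wild type. No test was possible with 1 library per strain. Every member may be named, and of other genes SPP1 and the extremes of each list. The 4 other pathway genes at or above 50% of wild type were added to these after their values were seen. The members, role groups, pairs and lists were chosen with earlier results of these data known. Alternatives were a pseudocount (10% of the median level in wild type), a floor on wild-type level at its 10th percentile or its median, division of each library by its sum over genes, leaving out chromosome IV left, taking off each library's 1st percentile as background, counting genes of identical levels once, and means in place of medians. The summaries were tested on simulated data with known shifts in sets of genes. Those shifts and sets were larger than the differences and sizes of the role groups, so that check does not cover differences this small.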

Additional observations from a re-analysis of the deposited data

How the results depend on the processing

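The difference between the median log2 ratio of the 54 genes and that of all genes was -0.094 and stayed between -0.102 and 0.032 over 8 alternatives, being positive only with the floor at the median wild-type level. The median log2 ratio itself, -2.02, was -1.61 with the pseudocount, -0.26 after division of each library by its sum and -2.23 after subtraction of the 1st percentile. Below 25% of wild type lay 28 of 54 as deposited, 4 of 54 with the pseudocount (8.30% of all genes), 11 of the 27 left by the floor at the median (33.3% of all genes left) and 0 of 54 after that division (0.0992%). The single gene at or above 50% became 2 with the pseudocount (12.0% of all genes), 0 with the floor at the median (7.70%), 49 after that division (96.7%) and 0 without chromosome IV left (5.41%). These counts follow the ratio's scale, or the fewer genes left by a floor or by leaving out chromosome IV left, where APC11 lies. That division turned APC11 to a log2 ratio of 1.40. The proteasome list's difference from all genes, 0.75, was 0.53 with the pseudocount, 0.61 with the floor at the median and 1.01 after background subtraction (alternatives for this list, single genes and pairs were added after seeing the data). Signs against all genes were kept under all 7 alternatives by the anaphase-promoting complex, SUMO, E1 and E2, and ubiquitin protease groups. They changed under 1 alternative for SCF, 2 for the ligases, 2 for the ubiquitin supply genes and 3 for the other pathway genes. The floor at the median wild-type level left only DOA1 of the supply genes. Division of each library by its sum cannot change any of these signs, and counting identical levels once left the role group differences unchanged. No paired analysis was possible because each strain has 1 library, and leaving out a library would leave no comparison.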
